A study of Mus musculus with 72 samples.

Results

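The 10 genes described here encode proteins of neutrophil granules and their cytosol, and each was followed in mouse liver from mid-gestation to adulthood. Every probe set whose only gene symbol in the array annotation is Mpo, Elane, Prtn3, Ctsg, Camp, Ngp, Ltf, Lcn2, S100a8 or S100a9 was taken, which gave 10 probe sets, 1 for each gene, of 34945 probe sets with a single symbol for 18193 genes. All 10 passed the filter on low values in liver, a mean above 6.66 on the log2 scale in at least 1 group of liver arrays. The study hybridised total RNA from whole liver and whole brain of male mice to 72 Affymetrix arrays, 3 for each of 24 groups. No treatment is named for any group, and the inbred strains were DBA/2J, called D2 here, C57BL/6J, called B6, and 129S2, called 129. The stages were the embryonic stage E14.5, postnatal days 1 (P1) and 7 (P7), and adults of 11 to 14 weeks (P90). The P90 animals were purchased, those of 129 from another supplier than those of B6 and D2, so strain and supplier cannot be told apart between them; younger animals were of the F1 generation, and E14.5 and P1 animals were sexed with a molecular test. The labels do not say that the 3 arrays of a group came from separate animals, so p-values measure the spread between these arrays, which may be technical. Whole organs were profiled, so fewer neutrophils and less RNA per neutrophil cannot be told apart.

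A neutrophil fills its granules in sequence while it matures. The promyelocyte makes the azurophil granules, which hold myeloperoxidase (Mpo) and the serine proteases neutrophil elastase (Elane), proteinase 3 (Prtn3) and cathepsin G (Ctsg), and it stops transcribing these genes when it becomes a myelocyte. Myelocytes and metamyelocytes make the specific granules, which hold cathelicidin (Camp), neutrophilic granule protein (Ngp), lactoferrin (Ltf) and lipocalin 2 (Lcn2), and the calcium-binding proteins S100a8 and S100a9 then become the most abundant proteins of the cytosol, outside the granules. In the mouse fetus the liver is the main blood-forming organ, and around birth this work passes to the bone marrow and spleen. Lcn2 is also made by hepatocytes in the acute phase response, the surge of plasma proteins that follows infection or injury.

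The genes that moved together include direct neighbours on a chromosome, and their promoters are printed here because most members of a granule class had similar courses up to P7. Each of the 10 genes has 1 entry in RefSeq's promoter table (build GRCm38.p6), and the windows are the 250 bases before the transcription start, read from 5′ to 3′ on the strand of the gene. Prtn3 and Elane are neighbours on chromosome 10, and S100a8 and S100a9 are neighbours on chromosome 3. Camp, with its window at chr9:109849457-109849706 (minus strand), lies in the same region of chromosome 9 as Ngp and Ltf. These genes of chromosome 9 are not direct neighbours. The windows of Prtn3, chr10:79879417-79879666 (plus strand), and Elane, chr10:79886062-79886311 (plus strand), stand for the azurophil class, and those of Ngp, chr9:110419558-110419807 (plus strand), and Ltf, chr9:111019042-111019291 (plus strand), for the specific class. Capitals mark matches on either strand to AGGAAG, the core bound by the ETS factor PU.1, and to TTGCNNAA, a form of the C/EBP site:
Prtn3: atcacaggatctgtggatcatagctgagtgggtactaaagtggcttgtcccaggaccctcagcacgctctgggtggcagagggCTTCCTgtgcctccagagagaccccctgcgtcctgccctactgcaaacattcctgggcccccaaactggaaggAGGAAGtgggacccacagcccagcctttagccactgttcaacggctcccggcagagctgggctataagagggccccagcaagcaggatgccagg
Elane: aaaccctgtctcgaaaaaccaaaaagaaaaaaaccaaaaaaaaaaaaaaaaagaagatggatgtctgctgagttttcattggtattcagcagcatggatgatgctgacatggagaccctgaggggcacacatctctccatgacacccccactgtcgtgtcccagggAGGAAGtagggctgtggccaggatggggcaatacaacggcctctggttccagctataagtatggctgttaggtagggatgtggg
Ngp: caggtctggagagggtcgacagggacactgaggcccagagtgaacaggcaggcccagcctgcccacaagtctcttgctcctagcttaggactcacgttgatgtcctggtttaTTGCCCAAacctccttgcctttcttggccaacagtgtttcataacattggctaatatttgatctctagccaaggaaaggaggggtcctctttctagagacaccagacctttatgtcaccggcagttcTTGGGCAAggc
Ltf: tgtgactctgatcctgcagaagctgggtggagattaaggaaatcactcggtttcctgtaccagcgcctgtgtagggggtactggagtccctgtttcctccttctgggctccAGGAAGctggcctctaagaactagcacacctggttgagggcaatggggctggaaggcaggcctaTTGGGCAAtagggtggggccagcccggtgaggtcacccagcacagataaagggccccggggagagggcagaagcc
The ETS core AGGAAG was found in the windows of 8 of the 10 members, all except Ngp and S100a9, and in 29.5% of 32851 windows of the same length in the table. The strict C/EBP form TTGCNNAA was found in Ngp, Ltf, Lcn2 and S100a9, and in 9.56% of all windows. At that share a match in none of the 4 azurophil genes is common, so its absence does not set that class apart. The looser C/EBP form TTNNGNAA matched Ngp, Ltf, Lcn2, S100a9 and S100a8, with 36.8% of all windows. With both strands searched, every strict match is also a loose match, so S100a8 was the only member that the loose form added. Camp, a specific granule gene whose window is not printed, matched neither form. The Myb core AACNG was found in all 10 members and in 74.2% of all windows. These matches are letters in a window, not measured binding.

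The 72 arrays carried 45101 probe sets, of which 64 controls were left out. Values were deposited as log2 signals, on which 1 unit is a 2-fold difference, and each of the 8 sets of 9 arrays from 1 tissue and stage had been normalized apart. Strains were therefore tested within a stage, and stages and tissues were compared by size after the arrays had been put on one scale. The mean of 8 hepatocyte markers was between 11.05 and 14.20 on the liver arrays, and that of brain markers was between 10.14 and 12.03 on the brain arrays and at most 8.48 on those of liver. A single array stood apart in 5 groups. On replicate 1 of D2 liver at E14.5 all 10 members were the highest of the 3, and the median SD of the members in that group was 0.76, against 0.18 in B6 and 0.17 in 129. On replicate 2 of B6 liver at P90, Lcn2, Prtn3 and the acute phase genes Saa1, Saa2 and Orm2 were at least 2-fold below both other replicates. On replicate 3 of 129 liver at P7, 26 of 18721 probe sets, Lcn2 and Prtn3 among them, were at least 2-fold above both others, and on replicate 1 of D2 liver at P7, 40 of 18917 were, Prtn3 among them. On replicate 2 of B6 brain at E14.5, S100a8 read 8.13 and Alb, the albumin gene of hepatocytes, 13.40. Results that rest on these arrays are given with and without them.

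The azurophil genes were already high at E14.5. At P1 they were within 2-fold of that level in B6 and higher in D2, and at P7 they were called lower in 129 than in B6. For Mpo at E14.5 the 3 B6 arrays read 12.09, 12.31 and 12.44, the D2 arrays 11.75, 11.31 and 10.82, and the 129 arrays 11.79, 11.87 and 12.12. At P1 the arrays of Mpo lay between 11.52 and 12.24. At P7 Mpo read 10.45, 11.37 and 10.71 in B6, 10.57, 9.76 and 9.05 in D2, and 8.71, 8.71 and 9.13 in 129. The 129 arrays lay below every B6 array, and D2 overlapped both other strains. At P90 the 9 arrays of Mpo lay between 4.08 and 4.59, below the median of all probe sets, which was 5.03 to 5.08 on these arrays. Elastase ran from 8.90 to 11.23 at E14.5, 10.65 to 11.45 at P1, 8.16 to 10.46 at P7 and 4.58 to 5.0 at P90. Cathepsin G ran from 9.22 to 10.96, 9.46 to 10.72, 7.00 to 9.78 and 4.15 to 4.47 at the same stages. Proteinase 3 read 9.53 to 11.67 at E14.5, 10.62 to 11.47 at P1 and 7.92 to 10.88 at P7, and at P90 it differed from its class: B6 read 6.97, 5.23 and 6.97, while D2 and 129 lay between 4.75 and 5.05.

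The specific granule genes were lower at E14.5 than at P1, and Camp and Ngp had their highest mean at P1 in each strain. Camp, the precursor of an antimicrobial peptide, read 11.22, 11.04 and 11.14 in B6 at E14.5, 9.11, 7.91 and 8.52 in D2, and 10.07, 10.26 and 10.05 in 129. These 3 strains did not overlap. At P1 Camp read 12.56, 12.82 and 12.47 in B6, 13.38, 13.21 and 13.24 in D2, and 12.84, 13.09 and 13.15 in 129, so that D2, the lowest strain before birth, was now the highest. At P7 B6 was above both other strains, with 12.19, 12.61 and 12.44, against 10.90, 11.40 and 11.38 in D2 and 11.30, 11.12 and 11.17 in 129. At P90 Camp lay between 4.24 and 4.43 on all 9 arrays. Ngp, a cystatin-like granule protein, ran from 8.80 to 11.93 at E14.5, 13.48 to 13.90 at P1, 11.68 to 13.31 at P7 and 4.77 to 5.04 at P90. Lactoferrin, which binds iron, ran from 7.29 to 9.51, 11.15 to 12.16, 9.52 to 11.58 and 3.93 to 4.46.

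Lcn2, which binds bacterial siderophores, followed the specific granule genes up to P1 and parted from them afterwards. It ran from 9.74 to 10.27 in B6 at E14.5 and read 9.0, 7.13 and 7.25 in D2, and 8.42, 8.98 and 8.58 in 129, and at P1 its 9 arrays lay between 11.83 and 12.69. At P7 it read 12.01, 12.42 and 12.30 in B6, 12.81, 12.50 and 11.21 in D2, and 11.41, 11.74 and 13.06 in 129, so the strains overlapped and the spread within D2 and 129 was wide (SD 0.85 and 0.87). At P90 the B6 arrays read 8.51, 5.28 and 10.13, the D2 arrays 4.36, 4.54 and 4.09, and the 129 arrays 5.08, 5.26 and 4.79. The calgranulins S100a8 and S100a9, which bind calcium and zinc, were high from the start: S100a8 read 13.32, 13.25 and 13.17 in B6 at E14.5, 12.06, 10.02 and 10.50 in D2, and 12.04, 12.21 and 11.89 in 129. At P1 it lay between 13.57 and 14.13, and at P7 between 12.48 and 13.73. At P90 it read 5.58, 4.61 and 6.80 in B6, 3.75, 3.84 and 4.09 in D2, and 4.12, 4.22 and 4.22 in 129. S100a9 ran from 9.43 to 12.51, 13.55 to 14.06, 12.24 to 13.62 and 5.14 to 6.86 at the 4 stages.

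**Figure D1:**
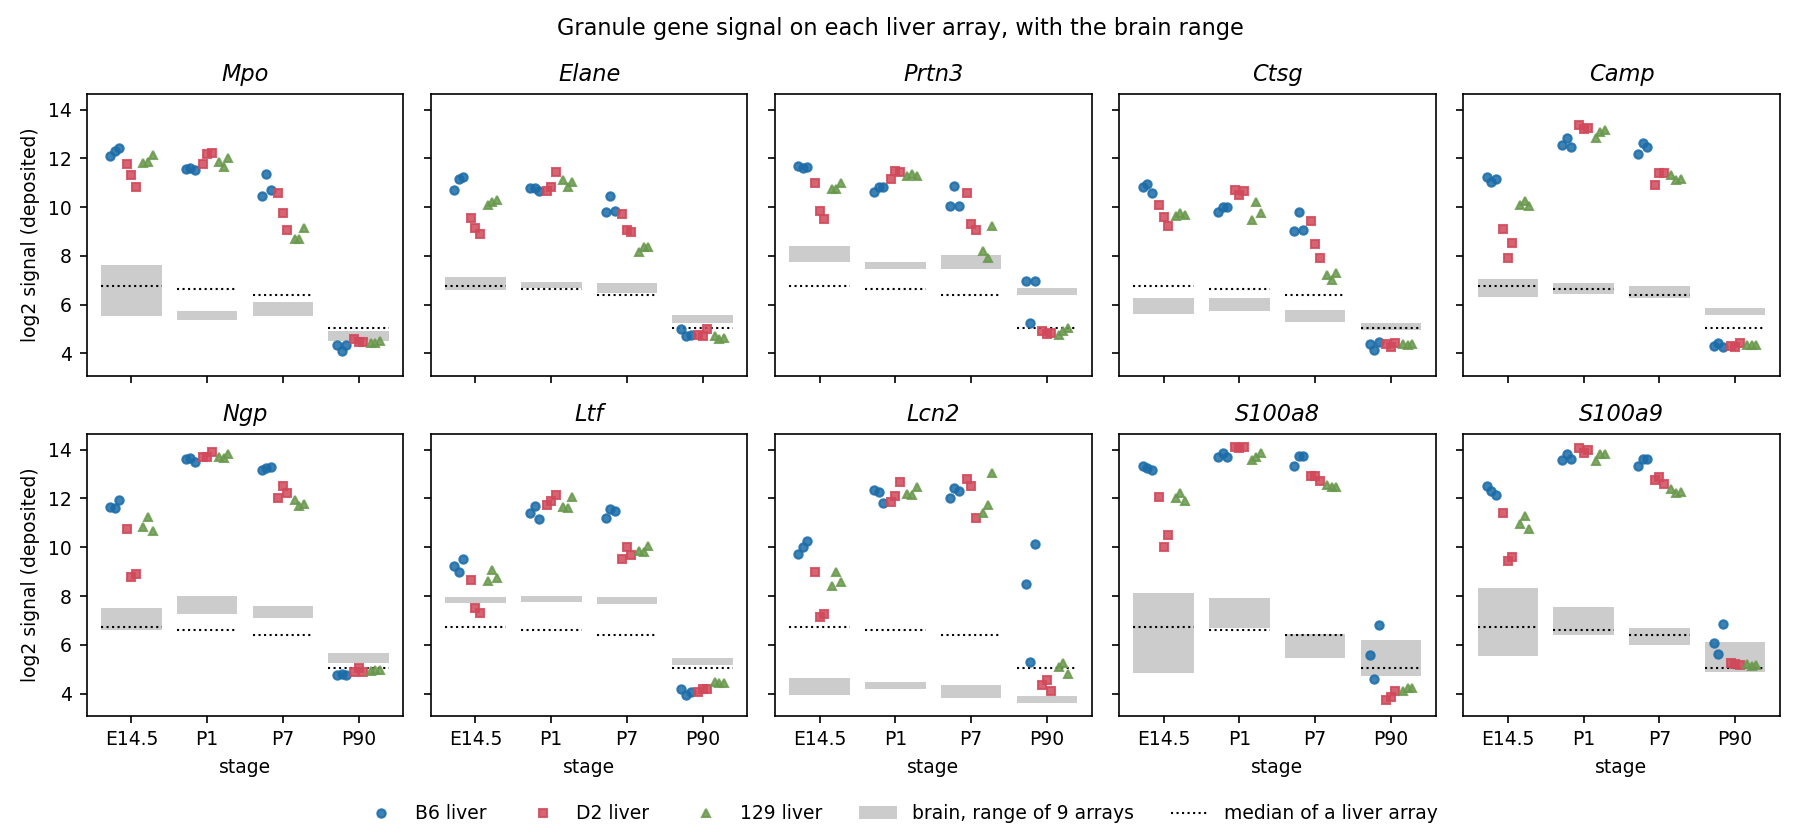
Deposited log2 signal (vertical axis) of the 10 genes on each liver array at E14.5, P1, P7 and P90 (horizontal axis), with 1 point an array, a colour and symbol for each strain, the range of the 9 brain arrays as a grey band and the median of all probe sets on the liver arrays as a dotted line. Stages were normalized apart; at P90 Camp lies between 4.24 and 4.43 on all 9 arrays while Lcn2 reaches 10.13 in B6.

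Between E14.5 and P1 the 4 specific granule genes were higher at P1 in every strain, while the azurophil genes were higher in D2 but not in B6. A gene was counted as changed between stages when the quantile-normalized strain means differed at least 2-fold in the same direction in each of the 3 strains. By this rule Camp rose by 3.46 ± 1.68 (log2, mean and SD over 3 strains), Ngp by 3.37 ± 1.33, Ltf by 3.55 ± 1.02, Lcn2 by 3.85 ± 1.19 and S100a9 by 2.99 ± 1.40. These were 5 of 10 members higher and 0 lower, where 7.73% of the 26430 probe sets tested were higher and 5.79% lower. S100a8 differed by 0.72 in B6, 3.74 in D2 and 1.92 in 129, and so missed the rule in B6. None of the azurophil genes met the rule in all 3 strains: the mean difference was 0.30 ± 0.83 for Mpo, 1.17 ± 1.12 for Elane, 0.67 ± 1.18 for Prtn3 and 0.46 ± 1.00 for Ctsg. In D2 alone they differed by 1.19, 2.28, 1.73 and 1.45, and in B6 by -0.47, 0.03, -0.60 and -0.55, and in 129 Elane differed by 1.21 and the others by 0.19 to 0.87. The size depended on the strain, since each of the 10 differences was lowest in B6 and highest in D2, the strain with the lowest E14.5 levels. Over all probe sets the median difference was -0.09.

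From P1 to P7 no member met the rule, with 1.12% of all probe sets counted as higher and 0.711% as lower. The strains differed in this step. Among the azurophil genes the difference was -0.34 to -0.69 in B6, but -1.73 to -2.29 in D2 and -2.59 to -3.03 in 129. Camp, Ngp and Ltf differed by -0.15 to 0.03 in B6 and by -1.53 to -2.22 in the other strains. Lcn2 differed by 0.14 in B6, -0.06 in D2 and -0.19 in 129.

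Between P7 and P90 all 10 members fell, where 10.9% of all probe sets fell and 6.99% rose. The fall was 7.28 ± 0.50 on the log2 scale for S100a8, 6.34 ± 0.90 for Ngp, 6.21 ± 0.28 for S100a9, 6.03 ± 0.71 for Camp, 5.25 ± 1.71 for Lcn2 and 4.91 ± 1.07 for Ltf. For the azurophil genes it was 4.18 ± 1.12 for Mpo, 3.17 ± 0.82 for Elane, 2.89 ± 0.66 for Prtn3 and 2.73 ± 1.13 for Ctsg. The median over the members was -5.08 and over all probe sets -0.08. At P90 the signals of most members lay below the array median, near the low end of the scale, which limits these sizes. Against E14.5, 9 of 10 members were lower at P90, where 19.4% of all probe sets were lower and 14.8% higher. The exception was Lcn2, at -0.64 in B6, -1.77 in D2 and -1.90 in 129.

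**Figure D2:**
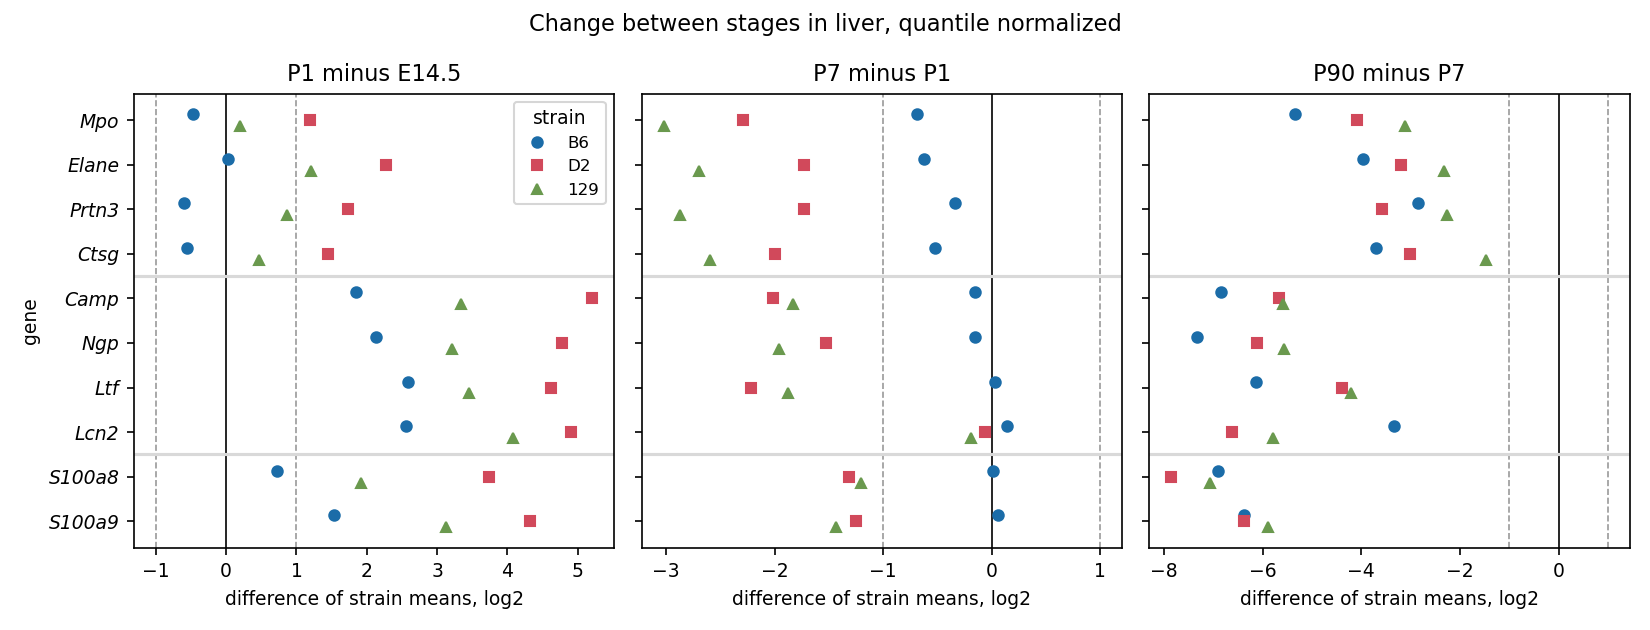
Difference of quantile-normalized strain means between consecutive stages in liver (horizontal axis, log2) for each gene (vertical axis), with 1 symbol a strain and dashed lines at 2-fold; grey lines part the azurophil, specific and cytosolic genes. From E14.5 to P1 the specific genes lie between 1.85 and 5.21, and the azurophil genes between -0.60 and 2.28.

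The balance of the granule classes was measured within each array as the mean of the 4 specific granule genes minus the mean of the 4 azurophil genes. The level of this difference depends on the probes, so its changes are what can be read. At E14.5 it was -0.94 ± 0.19 (SD, n = 3) in B6, -1.68 ± 0.42 in D2 and -1.08 ± 0.27 in 129, and at P1 it was 1.73 ± 0.18, 1.54 ± 0.03 and 1.76 ± 0.11. No array of E14.5 overlapped with one of P1. The change between these stages was 2.91 ± 0.28 over the 3 strains, about the same in each (2.68 in B6, 3.22 in D2 and 2.83 in 129), although the single genes differed widely between strains. From P1 to P7 it moved by a further 0.77 ± 0.48, to 2.25 ± 0.30 in B6, 2.02 ± 0.67 in D2 and 3.09 ± 0.03 in 129. At P7 the 129 arrays (3.06, 3.13 and 3.08) lay above all B6 and D2 arrays, the lowest of which was replicate 1 of D2 at 1.25. At P90, when both classes were near the low end of the scale, it was 0.30, -0.21 and 0.10. Deposited values gave a change of 2.85 from E14.5 to P1. The specific mean includes Lcn2, which parted from its class after P1. In D2, Camp, Ngp and Ltf differed by -2.02, -1.53 and -2.22 from P1 to P7. The azurophil genes of D2 differed by -1.73 to -2.29, and Lcn2 by -0.06, so in the means of all 3 arrays the D2 change rested largely on Lcn2. Those means include replicate 1 of D2 at P7. The balance on the D2 arrays was 1.25, 2.45 and 2.36 at P7, against 1.52 to 1.58 at P1. The part of Lcn2 was not worked out without replicate 1. In B6 and 129 each of the 4 specific genes had a higher difference than each azurophil gene.

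**Figure D3:**
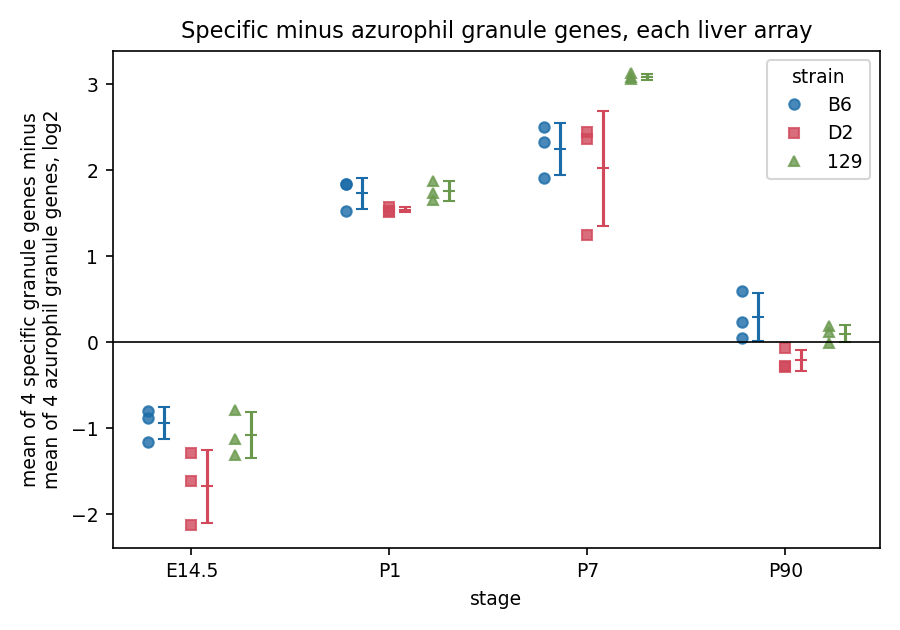
Mean log2 signal of Camp, Ngp, Ltf and Lcn2 minus that of Mpo, Elane, Prtn3 and Ctsg (vertical axis) on each liver array, by stage (horizontal axis) and strain, quantile normalized; bars give the mean and SD of 3 arrays. All E14.5 arrays lie below 0 and all P1 and P7 arrays above it, with the 129 arrays at P7 between 3.06 and 3.13.

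The other genes of the neutrophil programme, taken from lists of known genes, were counted by the same rule. Of 23 tested genes for other granule and late proteins, 14 rose and 0 fell between E14.5 and P1, with a list median of 1.72. The chitinase-like protein Chil3 rose by 6.40 ± 0.47, haptoglobin (Hp) by 6.31 ± 0.86 and the surface antigen Cd177 by 3.64 ± 0.44. Hp is a major plasma protein of hepatocytes, and 5 of 8 hepatocyte markers rose in the same step. From P7 to P90, 14 of the 23 fell, such as the stefin Stfa3 by 8.11, Chil3 by 6.40 and Olfm4 by 5.76 on the log2 scale, and Wfdc21 rose by 4.35. Of 12 transcription factors and receptors, 4 rose between E14.5 and P1, among them the C/EBP factors Cebpa (2.14 ± 0.30) and Cebpb (1.88 ± 0.14), and the chemokine receptor Cxcr4, which holds neutrophils in marrow, at 2.26 ± 1.11. Whole liver was profiled and hepatocyte markers rose in the same step, so these rises cannot be assigned to neutrophils. At P90, 2 of the 12 were higher than at E14.5 and 4 were lower. Myb, a factor of dividing progenitors, fell by 1.91 ± 0.08 from P1 to P7 and by 3.60 ± 0.25 from P7 to P90. Of 11 genes of the NADPH oxidase and adhesion, which arm and guide the mature cell, 2 rose at the first step (Ncf1 2.27, Cybb 2.01) and 9 fell at the last. Among other blood lineages, 9 of 13 erythroid genes fell between E14.5 and P1, while 6 of 14 monocyte and Kupffer cell genes (median 1.02) and 5 of 7 B lineage genes (median 1.84) rose. Differences between the lists were not tested.

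At E14.5 the granule genes were highest in B6 and lowest in D2. Strains were compared with limma, and a difference was called at an adjusted p below 0.05 over all 26430 probe sets and at least 1.5-fold. The fit shares the spread of a probe set over all 36 liver arrays, although groups differ in spread. For Camp the SD was 0.60 in D2 at E14.5 and 0.10 in D2 at P90, near the low end of the scale. An SE, and its p, can therefore be too small or too large for a single stage. All 10 members were called lower in D2 than in B6, where 2.82% of all probe sets were. Camp was lower by 2.62 on the log2 scale (SE 0.18, 6.16-fold, adjusted p = 4.1e-12), Ngp by 4.77-fold (adjusted p = 3.3e-07) and S100a8 by 5.23-fold (adjusted p = 1.4e-05), and the smallest difference was that of Mpo, 1.98-fold (adjusted p = 0.0078). Elane differed by 3.58-fold and Ctsg by 2.21-fold. In each of the 10 genes the D2 arrays lay below the B6 arrays with no overlap, as the groups of 28.5% of all probe sets did in either direction. The members differed by a median of -2.01 and all probe sets by 0.02. Without D2 replicate 3 the calls of Mpo (-0.75, adjusted p = 0.073) and Prtn3 (-1.22, adjusted p = 0.064) ended, and that of Lcn2 ended without any 1 of the B6 arrays or without D2 replicate 2 or 3 (adjusted p 0.054 to 0.12). On replicate 1 of D2, which was nearest to B6, 6 members were at least 2-fold above both other D2 arrays, as were 39 of 20995 probe sets in all. Without it the D2 difference was 7.36-fold for Ngp, 7.92-fold for S100a8, 7.03-fold for S100a9 and 7.04-fold for Lcn2. The mean of 6 megakaryocyte genes was 9.50 on this array and 10.14 and 10.09 on the others. With that array as the only one of D2, Camp (-2.02), Elane (-1.49), Ngp (-1.0), S100a8 (-1.19) and S100a9 (-0.90) kept the call and the other 5 members did not.

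In its mean the 129 strain lay between the others at E14.5. Of the 10 members 6 were called lower in 129 than in B6 (2.18% of all probe sets): Elane, Ctsg, Camp, Ngp, S100a8 and S100a9, by 1.76-fold to 2.48-fold. The call of Ngp ended without any 1 of the B6 arrays or without 129 replicate 1 or 3 (adjusted p 0.085 to 0.17), and that of S100a8 ended without replicate 1 or 2 of B6 or replicate 1 or 3 of 129 (adjusted p 0.065 to 0.088). The other 4 differed by -0.35 (Mpo), -0.44 (Ltf), -0.81 (Prtn3) and -1.34 (Lcn2). For Lcn2 the 129 arrays lay below the B6 arrays with no overlap, as the groups of 28.6% of all probe sets did in either direction. Its SE of 0.67 takes in its spread at the other stages, such as an SD of 2.47 in B6 at P90. The SDs at E14.5 were 0.29 in 129 and 0.26 in B6. Against D2, 5 members were called higher in 129 (1.56% of all probe sets), led by Camp at 3.07-fold (adjusted p = 1.1e-07) and Ngp at 2.70-fold (adjusted p = 0.00047). The call of S100a8 (1.19, adjusted p = 0.041) ended without any 1 of the 129 arrays or without D2 replicate 2 (0.76) or 3 (adjusted p 0.070 to 0.31), and its difference was 1.79 without D2 replicate 1, where that of Ngp was 4.17-fold. The call of Ltf (1.00) ended without D2 replicate 3 (0.74, adjusted p = 0.068). With D2 replicate 1 alone for D2, S100a8 differed by -0.01. With the replicate number as a block, since same-numbered arrays of this stage deviated together, the call of Ngp between 129 and B6 ended (adjusted p = 0.068). In a fit of the 9 arrays of the stage alone, 6 calls of 129 ended: Ngp, S100a8 and S100a9 against B6 (adjusted p 0.12 to 0.32), and Ltf, Ngp and S100a8 against D2 (adjusted p 0.13 to 0.19).

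The E14.5 difference was not limited to the 10 members. Of 23 other granule and late proteins 13 were lower in D2 than in B6 and 9 were lower in 129, and Stfa3 differed by -2.13 (SE 0.26) and -1.32. Genes of the NADPH oxidase and adhesion were lower in D2 in 7 of 11 cases. Megakaryocyte genes were lower in 4 of 6 cases, erythroid genes were lower in 1 and higher in 1 of 13, and 0 of 7 stem and progenitor genes were called, with a list mean between 8.16 and 8.38 on every array. Monocyte and Kupffer cell genes were lower in D2 in 2 of 14 cases and in 129 in 5 of 14. The part of these cell types in the result was not tested.

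At P1 the strains were close, and the sign of the D2 difference had turned. D2 was above B6 in all 10 members by 0.06 to 0.69, and 2 of them were called, Camp at 1.58-fold (adjusted p = 0.0053) and Ctsg at 1.61-fold (adjusted p = 0.038), where 4.4% of all probe sets were called higher. The Ctsg call ended without any 1 of the B6 arrays or without D2 replicate 1 or 3 (adjusted p 0.059 to 0.12). Between 129 and B6 limma called 0 of 10 members, 1 of which had an unadjusted p below 0.05, and 3.99% of all probe sets were called in either direction. Their differences ran from -0.12 to 0.55. Ctsg alone was called between 129 and D2, 1.75-fold lower in 129 (adjusted p = 0.017, 3.58% of all probe sets lower), with arrays at 9.46, 10.22 and 9.77 in 129 and 10.72, 10.48 and 10.66 in D2. That call ended without 129 replicate 1 (-0.63, adjusted p = 0.12) or without D2 replicate 1 (-0.76, adjusted p = 0.063).

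At P7 the granule genes were again highest in B6, and 129 now had the lowest azurophil genes. Compared with B6, 9 of 10 members were called lower in 129, where 2.74% of all probe sets were. Ctsg was 4.34-fold lower (adjusted p = 4.6e-07), Mpo 4.0-fold (adjusted p = 1.5e-06), Prtn3 3.64-fold and Elane 3.36-fold, while Ltf, Ngp, Camp, S100a9 and S100a8 were 2.13-fold to 2.85-fold lower. Lcn2 differed by -0.18 (SE 0.67). Leaving out 1 array at a time kept all of these calls except that of S100a8, which ended without any 1 of the 6 arrays (adjusted p 0.059 to 0.11). In D2, 5 members were called lower than in B6 (2.71% of all probe sets): Ltf at 3.21-fold (adjusted p = 3.7e-06), Camp at 2.28-fold (adjusted p = 2e-05), Mpo, Ngp and Elane. The calls of Mpo and Elane ended without B6 replicate 2 (-0.79 and -0.59, adjusted p = 0.055 and 0.067) or D2 replicate 3 (-0.68 and -0.66, adjusted p = 0.086 and 0.064), and that of Ngp ended without B6 replicate 3 or D2 replicate 1 (adjusted p 0.054 and 0.060).

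Between 129 and D2 at P7 the called members were the 4 azurophil genes, all lower in 129, where 2.75% of all probe sets were lower. Their differences were -0.95 for Mpo (adjusted p = 0.0095), -0.95 for Elane (adjusted p = 0.0011), -1.19 for Prtn3 (adjusted p = 0.035) and -1.43 for Ctsg (adjusted p = 0.00014), with SEs of 0.20 to 0.39. The 4 specific granule genes differed by -0.46 to 0.18 and S100a8 and S100a9 by -0.34 and -0.44. Elane and Ctsg kept the call with any 1 array left out. A fit of the 9 arrays of P7 alone ended the calls of Mpo and Prtn3 (adjusted p = 0.13 for both), and those of Mpo and Elane between D2 and B6 (adjusted p = 0.12 and 0.066). Without D2 replicate 1, Mpo (-0.56, adjusted p = 0.10) and Prtn3 (-0.72, adjusted p = 0.23) lost it, and Prtn3 also lost it without 129 replicate 1 (-1.07, adjusted p = 0.0998) or replicate 2 (-0.92, adjusted p = 0.16). On that D2 array the 4 azurophil genes were the highest of the strain, and 4 of 13 erythroid markers were at least 2-fold above both other D2 arrays. Among the wider lists at P7, 15 of 23 other granule and late proteins were lower in 129 than in B6 and 10 were lower in D2, where Chil3 was the most different at -2.64 (SE 0.17), against -1.34 in 129. Genes of the NADPH oxidase and adhesion were lower in 129 than in B6 in 10 of 11 cases, and so were monocyte and Kupffer cell genes in 10 of 14. In D2, 6 of 13 erythroid genes were lower than in B6. The part of these cell types was not tested.

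**Figure D4:**
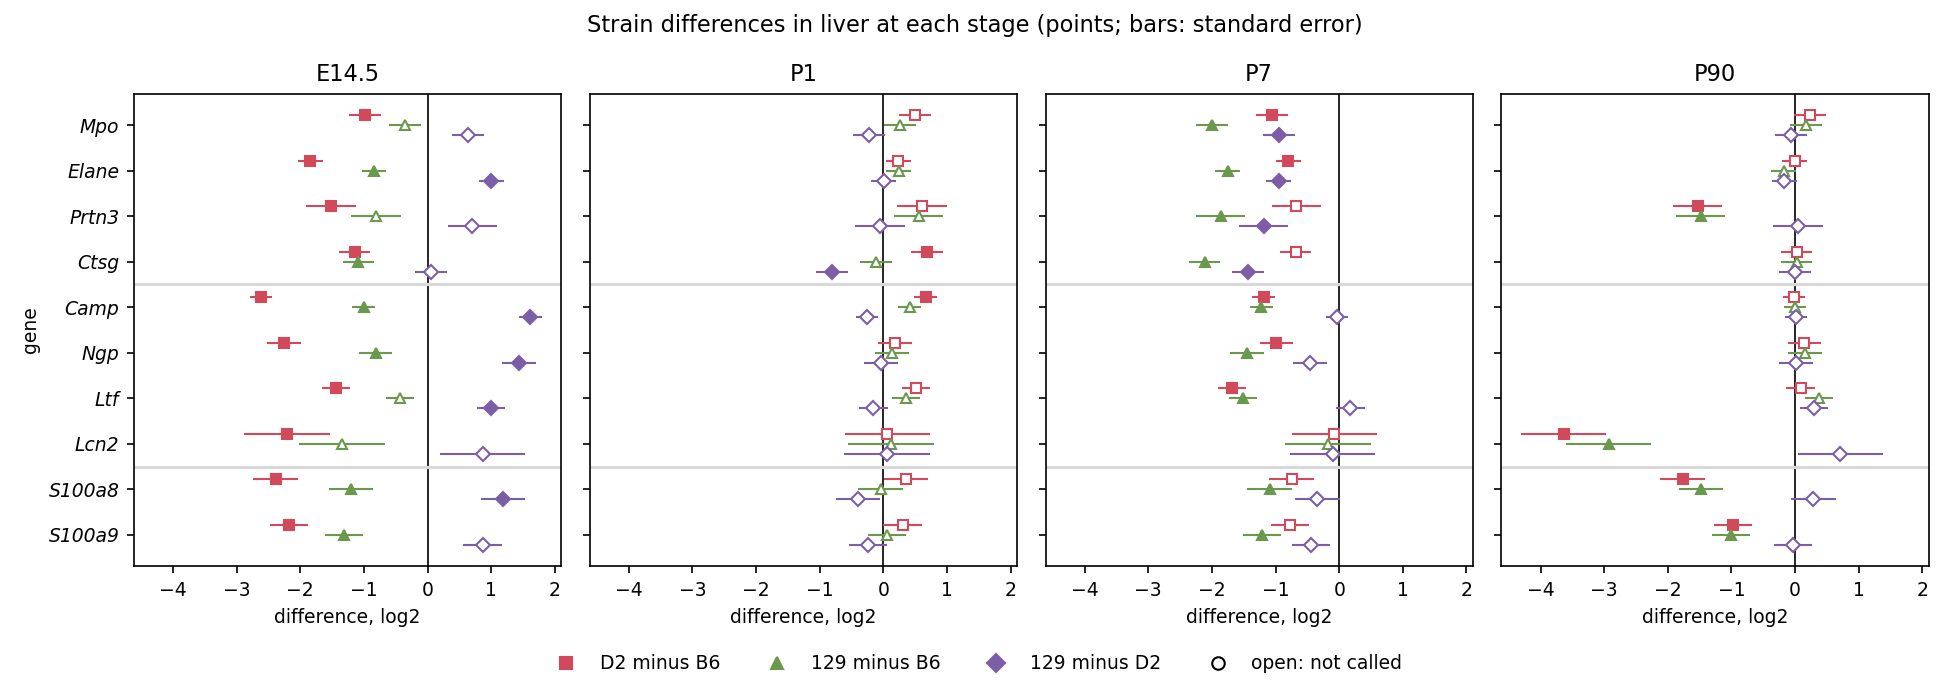
Strain differences (horizontal axis, log2) of each gene (vertical axis) in liver at each stage, with 1 symbol for each pair of strains, bars for the standard error of the fit, and filled symbols for called differences. All D2 minus B6 differences are below 0 at E14.5 (-2.62 to -0.99) and above 0 at P1 (0.06 to 0.69).

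At P90 the strain differences lay in 4 genes, Lcn2, S100a8, S100a9 and Prtn3, and rested on replicates 1 and 3 of B6. D2 was called lower than B6 in these 4 (2.83% of all probe sets lower), by 12.45-fold for Lcn2 (adjusted p = 0.00032), 3.41-fold for S100a8, 2.89-fold for Prtn3 and 1.97-fold for S100a9. Lower levels in 129 than in B6 were called in the same 4 genes (4.25% of all probe sets lower), by 7.61-fold, 2.79-fold, 2.80-fold and 2.02-fold. Between 129 and D2 limma called 0 of 10 members, 0 with an unadjusted p below 0.05, and 5.68% of all probe sets in either direction. The B6 arrays differed among themselves as the values above show, with replicates 1 and 3 high and replicate 2 nearer to the other strains. Over both comparisons 8 differences were called. Without replicate 1 of B6 this count went to 5, without replicate 3 to 3, and without both to 0. The fold of Lcn2 kept its call but moved widely, to 5.89-fold in D2 and 3.60-fold in 129 without B6 replicate 3, and to 31.7-fold and 19.4-fold without replicate 2. Without B6 replicate 3, S100a8 in 129 differed by -0.91 (adjusted p = 0.059) and S100a9 by -0.64 in D2 and -0.67 in 129. Prtn3 lost both calls without B6 replicate 1 or 3 (-1.24 in D2 and -1.19 in 129). The S100a9 call also ended without any 1 of the D2 arrays or B6 replicate 1 in D2 (adjusted p 0.065 to 0.094), and without 129 replicate 2 in 129 (adjusted p = 0.054).

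Replicates 1 and 3 of B6 were also high in acute phase genes. Saa1, serum amyloid A1, read 13.54, 10.08 and 14.04 in B6 at P90, Saa2 12.36, 8.28 and 13.24, and the orosomucoid Orm2 9.31, 7.40 and 10.38. The mean of 13 acute phase genes was 12.33, 11.41 and 12.89 on the B6 arrays and 11.03 to 11.25 on those of D2 and 129, and 5 of the 13 were called lower in D2 and 5 in 129. Other granule genes were low on all 3 B6 arrays. Camp read 4.32, 4.40 and 4.28, Cd177 3.12, 3.06 and 3.25, and the collagenase Mmp8 4.06, 3.94 and 4.06, and Elane, which neighbours Prtn3, read 5.0, 4.73 and 4.74. Monocyte and Kupffer cell genes were also lower in D2 (9 of 14) and in 129 (12 of 14) than in B6, with list means of 8.43, 8.02 and 8.49 in B6 and 7.46 to 7.73 in the other strains. At P7 Lcn2 was highest on the arrays of D2 and 129 with the highest acute phase mean: in 129 that mean was 10.80, 10.62 and 12.04 beside Lcn2 levels of 11.41, 11.74 and 13.06, and in D2 it was 11.43, 11.10 and 10.42 beside 12.81, 12.50 and 11.21. The part of the acute phase response in these values was not tested.

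**Figure D5:**
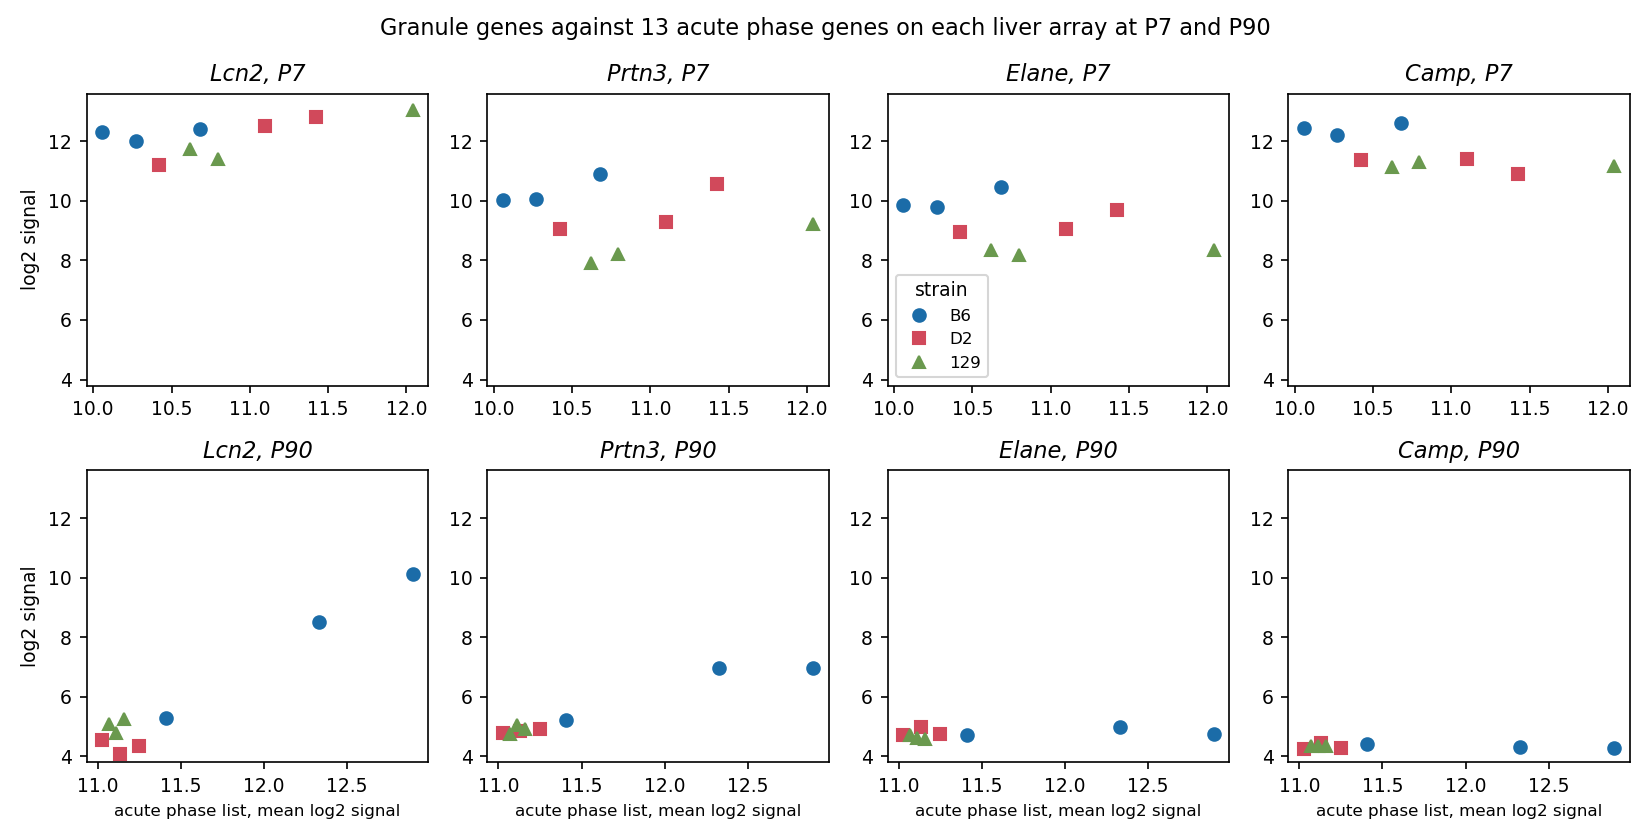
Log2 signal of Lcn2, Prtn3, Elane and Camp (vertical axes) against the mean log2 signal of 13 acute phase genes (horizontal axes) on each liver array at P7 (upper row) and P90 (lower row), with 1 point an array and a symbol for each strain. At P90 the B6 arrays at 12.33 and 12.89 on the horizontal axis carry Lcn2 at 8.51 and 10.13, while Camp stays at 4.32 and 4.28.

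Whether the strain differences depend on the stage was tested with the interaction of strain and stage in the same limma fit. All 10 members passed at an adjusted p below 0.05, from 1.2e-09 for Camp to 0.021 for Lcn2, where 36.7% of all probe sets did. Lcn2 no longer passed without B6 replicate 1 at P90 (adjusted p = 0.064) or without replicate 3 (adjusted p = 0.053). Because each stage had been normalized apart, a change of scale between stages could alter this test. With the liver arrays quantile normalized together, 10 members passed. The test includes P90, where most members lay near the low end of the scale, which limits strain differences there. A strain difference at another stage can then be enough to pass.

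In brain, which forms no neutrophils, the mean over the strains lay below the array median at every stage for 7 members, and above it for Prtn3 at every stage, for Ltf before P90 and for Ngp at P1 and P7. At E14.5, 9 of 10 members were at least 2-fold higher in liver in each strain (13.7% of all probe sets), and Ltf was the exception, with 0.53 in D2. All 10 were higher at P1 (15.5%) and at P7 (16.4%). Their median difference was 4.46 at E14.5, 6.60 at P1 and 5.34 at P7, and S100a8 and Lcn2 reached 7.72 ± 0.76 and 8.41 ± 0.12 at P7. At P90 the median was 0.45, and Lcn2 was the 1 member still higher, by 5.26 in B6, 1.90 in D2 and 2.71 in 129 (17.7% of all probe sets higher and 21.2% lower in liver). Leaving out any 1 replicate number kept the total of these counts at 30. In brain 7 members passed the filter, and limma called 0 of them in 12 strain comparisons, with 4 of 84 unadjusted p below 0.05, where 11% of all probe sets were called at least once. Replicate 2 of B6 brain at E14.5 read 8.13 for S100a8, against 5.26 and 4.83 on the other arrays, 8.33 for S100a9 and 7.61 for Mpo. On it 4 of 8 hepatocyte and 5 of 13 erythroid markers were at least 2-fold above both other arrays, with list means of 9.38 against 7.93 and 7.70 for hepatocytes and 9.38 against 7.96 and 7.82 for erythroid cells. Their part in those levels was not tested.

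Over the 12 liver groups the members of a class had similar profiles. Pearson's r of the quantile-normalized group means was 0.97 to 0.98 between pairs of azurophil genes. It was 0.89 to 1.00 between pairs of specific granule genes, and 0.59 to 0.95 between an azurophil gene and any other member. Lcn2 gave the lowest of the last range, 0.59 to 0.72. S100a9, of the cytosol, was nearer to Camp and Ngp (0.99 for both) than Lcn2 was (0.90 and 0.89). The groups share stages and normalization sets, so these values describe likeness and carry no test. Among 13134 other genes, the profiles nearest to the azurophil mean were those of F13a1, Parvg, Ms4a3, Arhgdib and Rgs14 (r = 0.98 to 0.99), and those nearest to the specific granule mean were Stfa2l1, Dock2, Stfa3, Alox5ap and Mcemp1 (r = 0.98 to 0.99). Ms4a3 encodes a membrane protein of granulocyte and monocyte progenitors, F13a1 a coagulation factor subunit found in monocytes and platelets, and Alox5ap a cofactor of leukotriene synthesis.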

How the data were processed

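RNA from 36 liver and 36 brain samples was measured on Affymetrix arrays. The authors deposited log2 signals made with RMA, per the submitters' processing notes; its version is not given in the sources used here. Equal values occurred in 1.55 to 4.35% of probe sets between arrays of the same tissue and stage (288 pairs) and in 0% between others (2268 pairs), so the 8 sets were taken as normalized apart. Symbols came from the platform annotation; 10092 probe sets with several symbols or none were not named. Strains were tested on deposited values in each tissue with limma 3.58.1 in R 4.3.3. The fit took group means over 36 arrays, a spread shared by all groups, and empirical Bayes. Benjamini-Hochberg adjustment covered all probe sets with a group mean above 6.66, the median of all values. A call needed an adjusted p below 0.05 and 1.5-fold. The fit was tried on simulated data with independent noise of equal spread in every group. Groups here differ in spread and some arrays were read as paired, which that trial does not cover. Stages and tissues were compared after quantile normalization, without a test. Named genes were all members, the list genes with the 3 largest stage changes in each direction or called between strains, and the 5 nearest profiles of each class; further genes named on single arrays were chosen after their values were seen. Where a list gene had several probe sets, the brightest was used. The number of arrays limits the precision. Deviations of same-numbered arrays correlated above 0.1 in all 9 pairs of E14.5 liver (0.19 to 0.75) and of P7 brain (0.10 to 0.82), which were read as paired. They did so in 2, 5 and 0 of 9 pairs of liver at P1, P7 and P90 and in 4, 6 and 2 of brain at E14.5, P1 and P90, which were not. The main fit held no pairing term, so its p-values ignore the pairing. A block for the replicate number, at every stage, was fitted only as an alternative. The members, lists and tests were chosen with earlier results of these data known.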

Additional observations from a re-analysis of the deposited data

Results flagged for a closer look

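The strain difference of each of the 10 members in liver differed between stages by the interaction test of strain and stage (limma, adjusted over all probe sets). The adjusted p was 1.2e-09 for Camp, 6.2e-07 for Elane, 6.8e-06 for Ltf, 2.8e-05 for Ngp, 4.5e-05 for Ctsg, 5.0e-05 for Mpo, 0.0018 for S100a9, 0.0020 for S100a8, 0.0027 for Prtn3 and 0.021 for Lcn2, which was 0.064 and 0.053 without replicate 1 or 3 of B6 at P90. For Camp the difference between D2 and B6 went from -2.62 at E14.5 to 0.66 at P1 and -1.19 at P7. At P90 most members lay near the low end of the scale, which limits strain differences there, so a difference at another stage can be enough to pass. Groups of 3 arrays are too small for a test of outlying samples.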

How the results depend on the processing

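Counts of members stayed within 1.5 times of the reported value under the scaling, filter, variance, weight and replicate block alternatives and with 1 array left out, with the exceptions given here. The change of the granule balance from E14.5 to P1 was 2.58 in place of 2.91 when S100a8 and S100a9 were added to the specific genes. Over the 3 pairs of strains, 21 members were called at E14.5 (16 to 22 with 1 array left out, and 12 without replicates 2 and 3 of D2, chosen after seeing the data), 3 at P1 (1 to 3, the lowest without D2 replicate 1), 18 at P7 (15 to 18) and 8 at P90 (3 to 8, and 0 without replicates 1 and 3 of B6, also chosen after seeing the data). In brain at E14.5 the count went from 0 to 3 with array weights and to 1 without B6 replicate 3. S100a8 between 129 and D2 at E14.5 turned from 1.19 to -0.013 without replicates 2 and 3 of D2. With 1 array left out, 30 of 50 called member differences kept the call throughout. With the replicate number as a block, whose pairing held in E14.5 liver and P7 brain, 20 members were called at E14.5, 3 at P1, 17 at P7 and 8 at P90; Ngp between 129 and B6 at E14.5 (adjusted p = 0.068) and Prtn3 between 129 and D2 at P7 (adjusted p = 0.051) lost the call. A fit of the 9 arrays of a stage alone called 15 at E14.5 and 16 at P7, and ended 10 of the 50 calls, each with the same difference. For the alternatives that leave 1 array in a group, that array is assumed to vary like the others. The signals of most members at P90 lie near the low end of the scale, which limits what can be read there.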

Other observations

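Proteinase 3 was at least 2-fold apart on arrays that also stood apart in several acute phase genes, a pattern chosen after its values were seen. It was also apart on arrays where few acute phase genes were, given at the end. On replicate 3 of 129 liver at P7, 22 genes were at least 2-fold above both other arrays of the group, among them Saa1, Saa2, Orm1, Orm2, Lrg1, Lcn2 and Prtn3, which read 9.23 against 8.21 and 7.92. In B6 liver at P90, replicate 2 was at least 2-fold below both other arrays in 8 genes: Saa1, Saa2, Orm2, Lcn2, Prtn3, Acnat2 and the metallothioneins Mt1 and Mt2. The genes common to both were Lcn2, Orm2, Prtn3, Saa1 and Saa2, which are 62.5% of the 8 and 22.7% of the 22. Elane, the neighbour of Prtn3 on chromosome 10 and a protease of the same granule, read 8.16, 8.34 and 8.36 in 129 at P7 and 5.0, 4.73 and 4.74 in B6 at P90. On the same 129 array Mpo (9.13 against 8.71 and 8.71) and Ctsg (7.29 against 7.22 and 7.00) were also the highest of the group. On replicate 1 of D2 at P7, the array of that strain with the highest acute phase mean (11.43), all 4 azurophil genes were the highest of the group. Prtn3 was at least 2-fold above both others there, as were 1 of 14 acute phase genes (Hamp) and 4 of 13 erythroid markers. On replicate 1 of D2 at E14.5 Prtn3 read 11.00 against 9.82 and 9.53, and 1 of 14 acute phase genes (Itih4) was at least 2-fold above both others. These are descriptions of single arrays, with no test.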
